A study of Caenorhabditis elegans with 7 samples.

Results

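Transcripts of 7 genes for enzymes of fasting and intermediary metabolism were followed in DD motor neurons and in all cells of first-stage (L1) larvae of Caenorhabditis elegans. They were acs-2, acdh-1, gei-7 (now icl-1), sodh-1 (now adh-1), B0365.1 (now acly-2), W07E11.1 and C55F2.1 (now atic-1), which are 7 of the 201 genes that could be named and 8 of the 22548 probe sets tested. W07E11.1 had 2 probe sets and every other gene had 1. They were chosen by name from the authors' deposited list of 236 probe sets higher in DD neurons than in all cells, so the difference between the groups had already chosen them. Their levels are therefore given as a description, with no p-value, and calls from the fit over all probe sets stand beside them only as background. None of their differences is evidence that such enzymes as a class are higher in DD neurons.

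DD neurons release GABA onto body wall muscle from the ventral nerve cord, and they were isolated by fluorescence-activated cell sorting. The 4 DD samples came from strain CZ8332, which carries the transgene juIs223 with mCherry under the ttr-39 promoter and GFP under the ttx-3 promoter, and the mCherry label was used for the sort per the series design, though a sample label names GFP. The 3 reference samples held all cells of the wild-type strain N2, with no reporter, and the sources used here give no sort for them. All 7 samples came from larvae that had hatched overnight in M9 buffer, a salt solution without food, at 20 °C and were arrested in growth. Both groups were thus fasted, and no fed sample was measured. RNA inputs of 5 to 10 ng were amplified and hybridised to 1 Affymetrix array per sample. All DD samples share 1 transgenic strain, and strain, sort and cell type changed together, so their parts cannot be told apart. Separate cultures are not stated for the replicates, so p-values and spreads measure the differences between these arrays, which may be technical.

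Animals without food draw on stored fat. Fatty acids are joined to coenzyme A by acyl-CoA synthetases and shortened by beta oxidation to acetyl-CoA. Nematodes, unlike mammals, can run the glyoxylate cycle, which turns acetyl-CoA into precursors of sugar. In the opposite direction, ATP citrate lyase turns citrate into cytosolic acetyl-CoA, from which new fatty acids are made. In C. elegans much of this fat metabolism takes place in the intestine, and L1 larvae that hatch without food live on reserves laid down in the embryo.

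On the arrays the DD neurons had mean levels 2.19- to 3.89-fold those of all cells, by 1 probe set per gene. The largest differences were those of the acyl-CoA enzymes acs-2 (3.89-fold) and acdh-1 (3.63-fold), and the smallest was that of the purine enzyme C55F2.1 (2.19-fold). Both acyl-CoA genes read below the array median on at least 1 all-cell array, so their folds are not exact. The 7 genes had a median log2 difference of 1.54, and the medians were 1.24 for the other 194 named genes and 0.06 for all 22548 tested probe sets. The named genes were all selected as higher, which fixes their medians above that of the array. Of the 8 probe sets, 6 had every DD array above every all-cell array, where 6.98% of all tested probe sets did so. In the limma fit over all probe sets 1 of the 8, that of B0365.1, passed a Benjamini-Hochberg adjusted p of 0.05 as higher, where 0.191% of all tested probe sets did, and this call was lost whichever array was left out. Over all tested probe sets, 43 were called higher and 51 (0.226%) lower, a split of 47 and 28 with arrays centred on their medians and of 43 and 33 after quantile normalization. Nothing is read from either count, since the list was chosen on the same contrast. In bulk samples a smaller share of the cells that hold a transcript and less of that transcript per cell cannot be told apart.

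**Figure D1:**
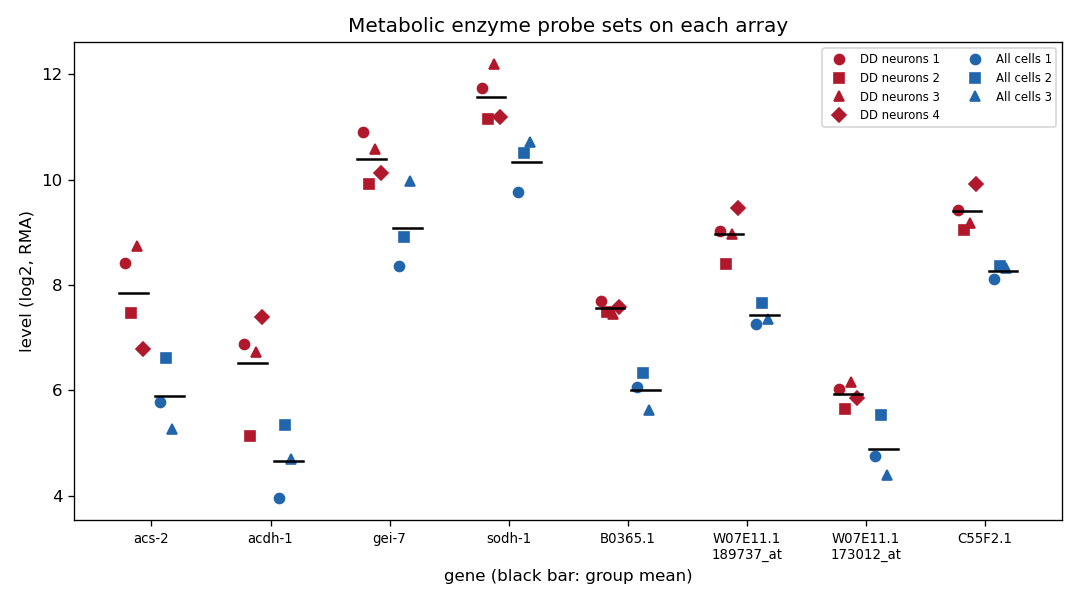
Level of each of the 8 probe sets (log2, RMA) on the 4 DD arrays (red) and the 3 all-cell arrays (blue), with a marker shape for each repeat number and a black bar for the group mean. The groups overlap for acdh-1 and gei-7, and the widest empty space between them is that of B0365.1, 1.12 on the log2 scale.

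The acyl-CoA synthetase gene acs-2, whose product activates fatty acids for mitochondrial beta oxidation and which is known to be induced by fasting through the nuclear receptor NHR-49, read 8.42, 7.46, 8.74 and 6.78 (log2) in DD replicates 1 to 4. In all cells replicates 1 to 3 it read 5.79, 6.62 and 5.27. The groups did not overlap, but DD replicate 4 exceeded all cells replicate 2 by 0.16 alone. The means were 7.85 ± 0.90 (SD, n = 4) and 5.89 ± 0.68 (SD, n = 3), a log2 difference of 1.96 ± 0.51 SE. The spread between DD arrays was larger than that of 97.1% of all tested probe sets. All cells replicate 3 lay below the median of its array, 5.37, and with no background level given the fold is not exact. Left out in turn, single arrays moved the difference between 1.65 and 2.32.

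The acyl-CoA dehydrogenase gene acdh-1 encodes an enzyme of short and branched acyl-CoA breakdown that acts in the propionate shunt and is known to respond to vitamin B12 in the diet. Its levels were 6.88, 5.13, 6.72 and 7.38 in DD replicates 1 to 4 and 3.96, 5.35 and 4.70 in all cells replicates 1 to 3. DD replicate 2 lay below all cells replicate 2, so the groups overlapped, and the other 3 DD arrays lay above all 3 all-cell arrays. The means were 6.53 ± 0.98 (SD, n = 4) and 4.67 ± 0.70 (SD, n = 3), with a log2 difference of 1.86 ± 0.54 SE. Of the 7 genes it had the widest spread between DD arrays, wider than that of 98.0% of all tested probe sets. It was also low on some arrays. DD replicate 2 and all cells replicates 1 and 3 read below the medians of their arrays, which lay between 5.21 and 5.37, so its fold is not exact either. Without DD replicate 2 the difference was 2.33, and without all cells replicate 2 the groups no longer overlapped.

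The gene gei-7 (icl-1) encodes the enzyme of the glyoxylate cycle that combines isocitrate lyase and malate synthase. It read 10.90, 9.91, 10.59 and 10.13 in DD replicates 1 to 4 and 8.36, 8.90 and 9.97 in all cells replicates 1 to 3. All cells replicate 3 stood 0.06 above DD replicate 2, while the other pairs of arrays kept the DD array higher. The means were 10.38 ± 0.45 (SD, n = 4) and 9.08 ± 0.82 (SD, n = 3), a log2 difference of 1.31 ± 0.40 SE. Here the all-cell arrays varied more than the DD arrays, with a spread above that of 95.2% of tested probe sets. The difference was 1.75 without all cells replicate 3 and 0.95 without all cells replicate 1. Its probe set carries the array maker's x mark, which is given to probe sets with probes that may also bind other transcripts, so the level may hold signal from other genes.

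The alcohol dehydrogenase gene sodh-1 (adh-1) read 11.74, 11.15, 12.19 and 11.18 in DD replicates 1 to 4. It read 9.77, 10.51 and 10.71 in all cells replicates 1 to 3. The groups did not overlap and the gap between them was 0.44. The means were 11.57 ± 0.50 (SD, n = 4) and 10.33 ± 0.50 (SD, n = 3), so that both groups had the same spread, and the log2 difference was 1.24 ± 0.33 SE. In the RefSeq gene table of assembly WBcel235, sodh-2 is the neighbouring protein-coding gene. No probe set could be named for sodh-2 here, so the share of its transcripts in this signal was not tested.

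B0365.1 (acly-2) is named for ATP citrate lyase, which makes acetyl-CoA in the cytosol. Its DD levels were 7.70, 7.50, 7.45 and 7.58 in replicates 1 to 4, a range of 0.24 on the log2 scale. Its all-cell levels were 6.06, 6.33 and 5.62. This was the best separated of the 7 genes, with the lowest DD array 1.12 above the highest all-cell array. The means were 7.56 ± 0.11 (SD, n = 4) and 6.01 ± 0.36 (SD, n = 3), and the log2 difference was 1.55 ± 0.20 SE, or 2.93-fold. Its DD arrays were closer together than those of 92.5% of all tested probe sets.

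W07E11.1, for which the sources used here give no other name, was measured by 2 probe sets. On probe set 189737_at it read 9.02, 8.40, 8.97 and 9.45 in DD replicates 1 to 4 and 7.25, 7.65 and 7.36 in all cells replicates 1 to 3. The groups lay 0.74 apart, with means of 8.96 ± 0.43 (SD, n = 4) and 7.42 ± 0.21 (SD, n = 3) and a log2 difference of 1.54 ± 0.26 SE. On probe set 173012_at it read 6.03, 5.65, 6.15 and 5.86 in DD neurons and 4.76, 5.53 and 4.40 in all cells. The groups were separate there too, by 0.12, and the log2 difference was 1.03 ± 0.28 SE, or 2.04-fold. The second probe set read below the array median on 2 of the 3 all-cell arrays, so its fold is not exact. The 2 probe sets had the same direction but differed by 0.51 in the log2 difference, and they ordered the DD arrays differently, with DD replicate 4 highest on the first and DD replicate 3 highest on the second.

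C55F2.1 (atic-1) bears the name of the enzyme that carries out the last steps of purine synthesis. It read 9.43, 9.05, 9.19 and 9.92 in DD replicates 1 to 4, and 8.12, 8.35 and 8.33 in all cells replicates 1 to 3. The lowest DD array stood 0.70 above the highest all-cell array. The means were 9.40 ± 0.38 (SD, n = 4) and 8.27 ± 0.13 (SD, n = 3), a log2 difference of 1.13 ± 0.23 SE, the smallest of the 7 genes. Its all-cell arrays were the closest together of the 7.

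The genes with the largest differences were thus not those with the clearest separation. By size of the log2 difference the order was acs-2, acdh-1, B0365.1, W07E11.1, gei-7, sodh-1 and C55F2.1. Neighbours in this order differed by less than the larger of their SEs, as did acs-2 and acdh-1 (1.96 ± 0.51 and 1.86 ± 0.54), so the order of adjacent genes is not resolved by these arrays. By the gap between the lowest DD array and the highest all-cell array the order was B0365.1 (1.12), W07E11.1 by probe set 189737_at (0.74), C55F2.1 (0.70), sodh-1 (0.44), acs-2 (0.16), gei-7 (-0.06) and acdh-1 (-0.22). The genes acs-2, acdh-1, gei-7 and sodh-1 had SDs of 0.45 to 0.98 between DD arrays and 0.50 to 0.82 between all-cell arrays. The other 3, by 189737_at for W07E11.1, had 0.11 to 0.43 and 0.13 to 0.36. Over the 7 genes the median SD was 0.45 in DD neurons and 0.50 in all cells. It was 0.41 and 0.36 for the other 194 named genes, and 0.32 and 0.24 for all tested probe sets. The division of the 7 genes by SD was drawn after the values were known.

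**Figure D2:**
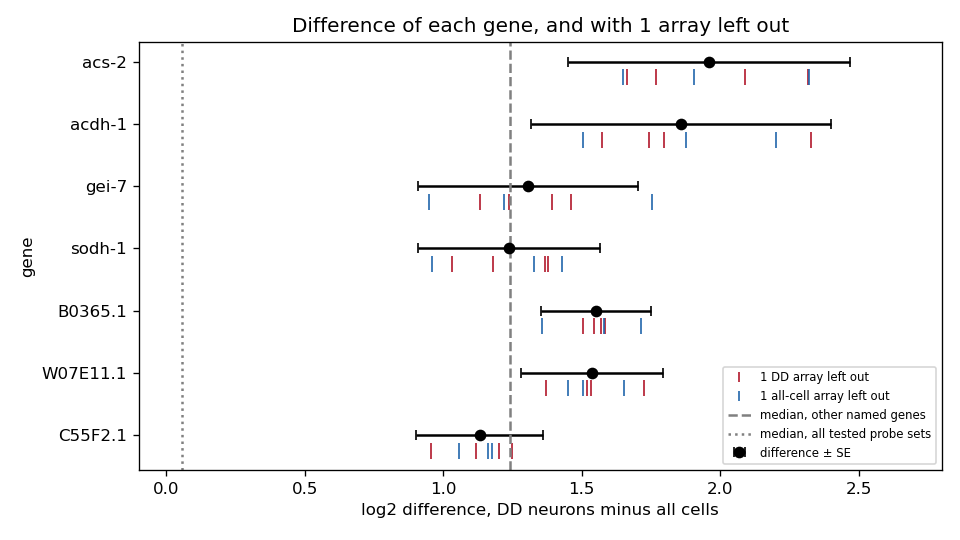
Log2 difference between DD neurons and all cells for each gene, 1 probe set per gene, with its limma SE, and below it the difference with each single DD array (red ticks) or all-cell array (blue ticks) left out. The dashed line is the median of the other 194 named genes, 1.24, and the dotted line that of all tested probe sets, 0.06.

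The lowest difference among the 8 probe sets, 1.03 for W07E11.1 by 173012_at, lay close to the lower end of the authors' list, which was 1.00. Outside the list, the nearest probe set under that bound stood at 0.9996, and 132 unnamed probe sets lay between 0.9 and 1. Another 113 probe sets outside the list had a difference of at least 1, up to 1.76, so size alone did not decide which genes could be named.

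The genes did not all order the arrays of a group alike. DD replicate 2 was the lowest DD array for 6 of the 8 probe sets and was below the DD mean for all 7 genes, while it was the lowest DD array for 23.0% of all tested probe sets and for 61 of the 194 other named genes. The exceptions were acs-2, for which DD replicate 4 was lowest, and B0365.1, for which DD replicate 3 was lowest. DD replicate 1 was above the DD mean for all 7 genes. Among the all-cell arrays, replicate 2 was the highest for 6 of the 8 probe sets, against 34.2% of all tested probe sets, and all cells replicate 3 was the highest for gei-7 and sodh-1.

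Some genes followed the same order of arrays. The genes acdh-1, W07E11.1 (by 189737_at) and C55F2.1 all ran from DD replicate 4 through 1 and 3 to 2, and from all cells replicate 2 through 3 to 1. This double order, taken from acdh-1 itself after the values were seen, was found for 0.497% of all tested probe sets. That share is background and no test of the likeness. In all cells, gei-7 and sodh-1 both ran from replicate 3 through 2 to 1, and in DD neurons both had replicates 1 and 3 above replicates 4 and 2. The gene acs-2 went the other way in DD replicate 4, at 1.07 below its DD mean where acdh-1 was 0.85 above its own. The closest pair of the 7 was W07E11.1 and C55F2.1, whose profiles over the 7 arrays, each centred on its mean, had a root mean square difference of 0.24 (log2). The farthest pairs were acs-2 with acdh-1 and acs-2 with C55F2.1, both at 0.93. These distances describe 7 arrays that the genes share.

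**Figure D3:**
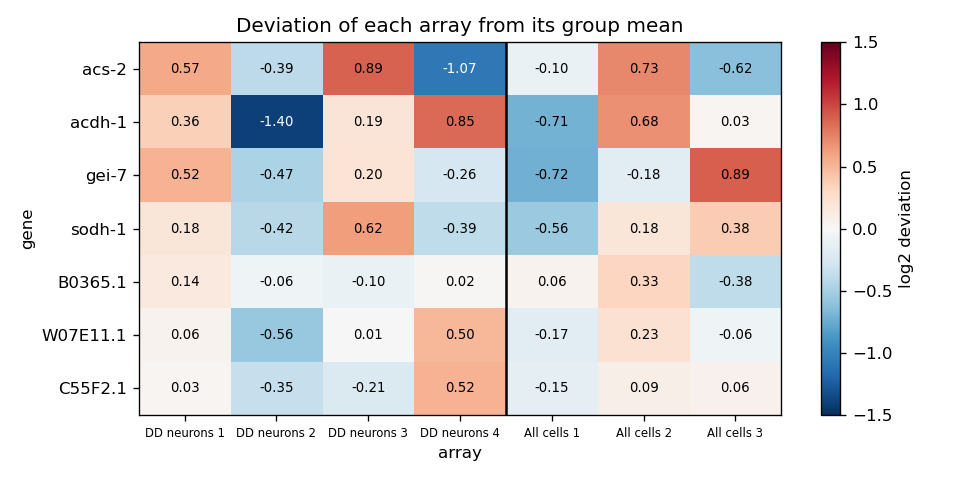
Deviation of each array from the mean of its group (log2) for each gene, with red above and blue below the mean and the vertical line between the 4 DD arrays and the 3 all-cell arrays. DD replicate 2 is below the mean for all 7 genes, most of all for acdh-1, and DD replicate 4 is split between -1.07 for acs-2 and 0.85 for acdh-1.

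Averaged over the 7 genes, the level was 9.16, 8.37, 9.12 and 8.92 (log2) in DD replicates 1 to 4 and 7.04, 7.67 and 7.42 in all cells replicates 1 to 3. The lowest DD array exceeded the highest all-cell array by 0.70 in this average, while acdh-1 and gei-7 overlapped singly. The 7 genes were chosen as higher on these same arrays, so nothing is read from this gap. Chaperone genes of the heat shock response are also on the authors' list. The heat shock list used here held 14 names, not all of them chaperones, and 9 genes of it could be named. These 9 averaged 9.90 to 11.03 in DD neurons and 6.11 to 8.22 in all cells. The probe sets of F44E5.4, F44E5.5, hsp-16.1 and hsp-70 carry an s mark and that of hsp-16.49 an x mark. The 9 levels may therefore not be separate measurements. The order of arrays by the heat shock average was the same in part. All cells replicate 2 was the highest all-cell array and DD replicate 3 was high in both averages. DD replicate 2, the lowest for the metabolic genes, was at 10.90 in the heat shock average, above DD replicates 1 and 4 (9.90 and 9.93), and all cells replicate 3, the lowest by far for heat shock genes at 6.11, was between the other all-cell arrays for the metabolic genes. The part of heat shock or handling in the metabolic levels was not tested. The 7 named genes of 9 listed for D-type GABA neurons averaged 9.11 to 9.71 in DD neurons and 6.52 to 6.96 in all cells. DD replicate 2 was again the lowest DD array (9.11) and all cells replicate 2 the highest all-cell array. Among the 7 are unc-25, unc-46 and unc-47, which serve GABA synthesis and vesicle loading and do not mark D-type neurons alone. These marker genes come from the same list, so their direction was fixed by that choice. The 77 array controls averaged 5.71 to 6.02 in DD neurons and 5.39 to 5.56 in all cells, and their part in the differences was not tested.

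**Figure D4:**
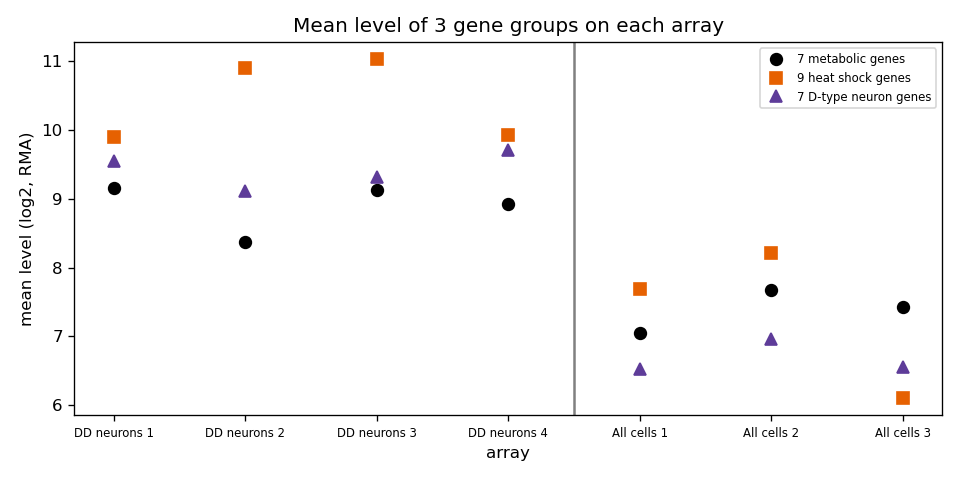
Mean level (log2, RMA) of the 7 metabolic genes (black circles), 9 heat shock genes (orange squares) and 7 genes of the D-type neuron list (purple triangles) on each array, 1 probe set per gene, with the DD arrays to the left of the line. DD replicate 2 is the lowest DD array for the metabolic (8.37) and D-type genes (9.11) but not for the heat shock genes (10.90).

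Few other enzymes of these pathways could be named. The 13 lists used held 201 gene names, some of them an earlier and a present name of the same gene. They covered acyl-CoA synthetases, mitochondrial and peroxisomal beta oxidation, propionate and branched-chain breakdown, and the glyoxylate and citric acid cycles. Also covered were gluconeogenesis, glycolysis, alcohol and aldehyde dehydrogenases, fatty acid synthesis, lipases and fat stores, glutamate and glutamine, purines and regulators of fasting. Only 8 genes of the lists had a named probe set, the 7 genes described above and the aldolase gene aldo-1 of glycolysis. For aldo-1 the DD levels were 11.02, 10.49, 10.91 and 10.99 in replicates 1 to 4 and the all-cell levels 9.50, 10.07 and 9.89, a log2 difference of 1.03 ± 0.21 SE with no overlap of the groups. The aldo-1 probe set carries an s mark, so its level may hold signal from other transcripts. Like the 7 genes, aldo-1 was selected by the authors as higher, and DD replicate 2 was its lowest DD array as well. The lists of peroxisomal beta oxidation, gluconeogenesis, lipases and fasting regulators, among them nhr-49 and daf-16, had no named gene, and the levels of their members were not analysed here. In the fit over all probe sets aldo-1 was not called. With unnamed genes outside the count a lower level of any of them would not be seen.

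Intestinal genes could not be used to check the sorted cells, since 0 of 21 listed intestinal markers had a named probe set, and 0 of 6 pharyngeal markers and 0 of 5 markers of the excretory cell and coelomocytes did. Of 8 muscle markers the titin gene ttn-1 was named, with a level of 7.81 to 8.54 in DD neurons and 6.44 to 7.54 in all cells. The epidermal-list gene ptr-24, 1 of 11, read 7.83 to 8.55 and 6.92 to 7.28. The P granule gene pgl-1, 1 of 6 germ line markers, read 5.14 to 6.69 and 4.75 to 5.20, so that its groups overlapped. The probe sets of ptr-24 and pgl-1, and of the neuronal genes ric-4 and unc-64, carry an s mark. Their levels may hold signal from other transcripts. Among general neuronal genes 7 of 14 were named, with a summed level of 13.07 to 13.25 in DD neurons and 11.43 to 11.84 in all cells. Of these neuronal genes unc-10 had a log2 difference of 6.40, and the others had 1.00 to 1.28. Every marker that could be named was on the authors' list as higher in DD neurons, so its direction was fixed by that choice. Markers off that list could not be named. The share of intestinal or other cells among the sorted cells was therefore not tested.

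The named genes with profiles most like those of the 7, by root mean square difference over the 7 arrays among 200 other named genes, were as follows. For acs-2 they were the microtubule regulator gene cls-2 (0.39), F21C10.10 (0.49) and R107.5 (0.49), and for acdh-1 they were Y37E11AL.1 (0.41), F53C3.4 (0.44) and W07E11.1 (0.48). The nearest to gei-7 was sodh-1 (0.32), followed by ttn-1 and bam-2 (both 0.36). For sodh-1 they were B0261.7 (0.21), mpz-1 (0.26) and the RIM-binding protein gene tag-168, now rimb-1 (0.29). B0365.1 was closest to sto-2, atgp-1 and F25E5.1 (0.21 to 0.23), and W07E11.1 to F15A8.4, F53C3.4 and F59D12.1, now pcdr-1 (0.21 to 0.24). C55F2.1 was closest to T06F4.1, F15A8.4 and the myosin gene hum-2 (0.18 to 0.19). Of these 21 closest genes, counted once for each of the 7, 2 were themselves among the 7, sodh-1 for gei-7 and W07E11.1 for acdh-1. All were selected as higher in DD neurons, so a part of the likeness was fixed by the selection.

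In the RefSeq table the 7 genes had 14 neighbouring protein-coding genes, and 1 of them was a named gene of the list, where 0.981% of 19983 protein-coding genes were. It was ilys-4, a lysozyme gene next to C55F2.1, whose mean was 10.10 ± 0.60 (SD, n = 4) on the DD arrays and 7.42 ± 0.25 (SD, n = 3) on the all-cell arrays. C55F2.1 also had the most RefSeq transcripts of the 7, with 3, while acdh-1, gei-7 and W07E11.1 had 2 and the others 1. Which of these transcripts each probe set reads is not known here.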

How the data were processed

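Per the labels, the deposited log2 values were made by the authors with RMA, which corrects background, normalizes between arrays and summarises probes. The sources used here give no version, scan dates or detection calls. Values covered 22625 probe sets, and the 77 array controls were left out of the tests. Another deposited table, whose header calls it a list of genes above the reference, was used for gene names alone. It paired 222 of 236 probe sets with 201 genes, of which 198 matched RefSeq (WBcel235). None of its scores, folds or q-values was used.

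Differences were fitted with limma 3.58.1 (R 4.3.3) over 22548 probe sets and all 7 arrays without covariates, with 5 residual and 3.13 prior degrees of freedom. Calls used a two-sided Benjamini-Hochberg adjusted p of 0.05. Where a gene had several probe sets, the one without an s or x mark and with the highest mean was used. A mean of 5 was the limit for dim probe sets. Tables and plots used Python 3.11.15, pandas 2.3.3 and matplotlib 3.10.9. The number of arrays limits the precision. All members were named, with the 3 most similar named genes for each and every named gene of the pathway lists. Members and lists were chosen with earlier results of these data known, and ilys-4 and the orders of arrays were described after their values were seen. Alternatives left out each array, added the repeat number as a block, changed scaling, filter, probe set or group summary, or kept the controls.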

Additional observations from a re-analysis of the deposited data

How the results depend on the processing

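All 7 genes kept a higher level in DD neurons under the 10 alternatives that could move their values and gave all 7, namely each array left out, centring, quantile normalization and group medians. With the other probe set of W07E11.1 these gave 71 values, and 70 moved by less than 1 SD, pooled within the groups. The exception was that other probe set, at 1.03. The 7 genes were chosen as higher on these same arrays, so the direction kept in these settings is no separate support. The filter on dim probe sets and the controls cannot move a gene's value, and the block gave the same gene values as leaving out DD replicate 4. The median log2 difference ranged from 1.31 to 1.65, and from 1.39 to 1.65 with single arrays left out. The count of member probe sets without overlap was 6 to 8 with single arrays left out. It reached 8 without DD replicate 2, and 7 without all cells replicate 2 or 3, or with arrays centred on their medians. With fewer arrays full separation is easier for any probe set. The share over all tested probe sets was not counted in these settings, so nothing is read from the rise.

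Counts over all probe sets were less steady. By limma, 43 were called higher and 51 lower, and with single arrays left out these counts ranged from 6 to 23 and from 0 to 39, with the lowest of each without DD replicate 1 (where 1211 were higher and 1779 lower with an unadjusted p under 0.05). At that unadjusted limit the balance moved with the scaling, from 1369 higher and 2096 lower to 2233 and 1572 with arrays centred on their medians, and to 1677 and 1776 after quantile normalization. The lower count was 28 with arrays centred on their medians, 33 after quantile normalization and 87 without dim probe sets, when fewer probe sets were tested. Without dim probe sets 61 of the 12384 probe sets tested were called higher, and W07E11.1 (189737_at) was among them beside B0365.1. With the replicate block 2 were called higher and 0 lower, with 1444 and 2075 at an unadjusted p under 0.05, and no member was called. The repeat numbers gave no sign of pairing the samples, since the deviations of arrays with the same number correlated at -0.01, 0.07 and 0.09, and 1 of 3 DD arrays correlated best with its own number. The count without overlap has no value under the block. The cause of these shifts was not tested. Values below the medians of single arrays limit the folds of acs-2, acdh-1 and W07E11.1 by 173012_at. The filter on dim probe sets, a mean of 5, kept all 8 member probe sets.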
